A study of Homo sapiens with 9 samples.

Results

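The BCL2 family genes described here are 10 genes that hold back or bring about cell death at the mitochondrion: BCL2, BCL2L1, MCL1, BAX, BAK1, BCL2L11, PMAIP1, BID, BIK and BAD. They were taken as a fixed list of symbols and matched to the Ensembl gene identifiers of the count tables, and all 10 of 10 were found among 60880 identifiers. The cells were labelled SNU5, an established human gastric carcinoma line, and the measurement was poly-A RNA-seq with 3 libraries in each of 3 groups. NR cells received AuNR-PEG-Ab, gold nanorods coated with polyethylene glycol (PEG) that carry ramucirumab, a monoclonal antibody against the receptor VEGFR2. SP cells received AuSP-PEG-Ab, gold nanospheres with the same coat and antibody, and Ab cells received free ramucirumab. The antibody was given at 8 μg/mL for 24 h in all 3 groups, so every library came from antibody-treated cells, and no library of untreated cells or of gold without antibody was analysed here. The comparisons therefore ask how the antibody on gold differs from the free antibody, and how rods differ from spheres. The labels name no culture or batch, so a difference of culture between groups cannot be told apart from the treatment.

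Proteins of the BCL2 family decide whether the outer mitochondrial membrane is permeabilised. The pro-survival proteins BCL2, BCL-XL (the main product of BCL2L1) and MCL1 hold the pore-forming proteins BAX and BAK1 in check. BH3-only proteins, here BIM (from BCL2L11), NOXA (from PMAIP1), BID, BIK and BAD, bind into a groove of the pro-survival proteins, and some of them also activate BAX and BAK1 directly. MCL1 and NOXA are both short-lived proteins, and NOXA binds MCL1 in preference to BCL-XL.

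The feature that the 10 genes share is the BH3 motif, through which the proteins bind each other. Its coding stretch is shown for each gene because the pairing of these motifs with the groove is what sets pro-survival and pro-death members against each other. Each line is 30 bases of the sense strand, 5′ to 3′, read from GRCh37 through a coding transcript of GENCODE release 44, and the capitals mark the codons of a leucine, any 3 residues, a glycine or serine, and an aspartate.
BCL2: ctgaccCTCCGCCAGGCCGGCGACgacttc
BCL2L1: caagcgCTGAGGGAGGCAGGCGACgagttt
MCL1: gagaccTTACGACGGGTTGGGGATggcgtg
BAX: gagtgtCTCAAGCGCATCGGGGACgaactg
BAK1: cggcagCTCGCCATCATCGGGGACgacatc
BCL2L11: caagagTTGCGGCGTATTGGAGACgagttt
PMAIP1: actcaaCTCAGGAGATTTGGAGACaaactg
BID: aggcacCTCGCCCAGGTCGGGGACagcatg
BIK: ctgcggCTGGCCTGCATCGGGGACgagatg
BAD: cgcgagCTCCGGAGGATGAGTGACgagttt
The stretch lies in exon 2 of 3 at chr18:60985588-60985617 for BCL2, exon 2 of 3 at chr20:30309731-30309760 for BCL2L1 and exon 1 of 3 at chr1:150551347-150551376 for MCL1, all on the minus strand. It lies in exon 3 of 6 at chr19:49459038-49459067 for BAX on the plus strand and in exon 4 of 6 at chr6:33543170-33543199 for BAK1 on the minus strand. For the BH3-only genes it lies in exon 3 of 4 at chr2:111907674-111907703 for BCL2L11, in exon 2 of 2 at chr18:57569899-57569928 for PMAIP1 and in exon 3 of 5 at chr22:43523716-43523745 for BIK, all on the plus strand. For BID it lies in exon 4 of 6 at chr22:18222187-18222216 and for BAD in exon 3 of 4 at chr11:64039100-64039129, both on the minus strand. In these transcripts the leucine is residue 97 of 239 in BCL2, 90 of 233 in BCL2L1, 213 of 350 in MCL1, 29 of 54 in PMAIP1 and 152 of 198 in BCL2L11. The BAD stretch is the only one of the 10 with a serine codon (AGT) in place of the glycine codon before the aspartate. BID also holds a match of the serine form whose leucine is residue 25, which is not the known BH3 motif.

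The libraries 1, 2 and 3 held 25735410, 13863155 and 15943980 counts in NR, 21682836, 22914759 and 20601906 counts in SP, and 19566064, 26318227 and 21031024 in Ab. Levels are given as CPM, counts scaled to a common library total with the TMM factors of edgeR, and 3 counts correspond to 0.114 to 0.216 CPM before that scaling. Mitochondrially encoded genes took 3.41% to 3.71% of the counts in Ab libraries, 4.36% to 4.59% in NR libraries and 4.40% to 4.66% in SP libraries. This share was higher in every nanoparticle library than in any Ab library, and its part in the results was not tested. Markers of the labelled cell type were mixed. KRT8 (13029 to 47765 counts), KRT18 and MUC1 were abundant, while EPCAM had 63 to 141 counts in the nanoparticle libraries and 29, 43 and 35 in Ab 1 to 3. CDH1 had 79 to 159 counts in the nanoparticle libraries and 5, 5 and 9 in Ab 1 to 3, with no overlap for either gene. KRT19 (0 or 1 count) and TFF1 (0 to 4 counts) were near absent from all 9 libraries, and the identity of the cells was not tested beyond these markers. The 8 epithelial markers, led by KRT8, summed to 927 to 989 CPM in the Ab libraries, 2425 to 2476 CPM in the NR libraries and 2492 to 2598 CPM in the SP libraries.

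Markers of other cell types were checked in the same libraries. Of 7 leukocyte markers, MS4A1 and LYZ had 0 counts in all libraries and PTPRC and CD3E at most 2, and the list summed to 1.09 to 2.04 CPM in the Ab libraries, 2.13 to 2.89 CPM in the NR libraries and 2.54 to 3.20 CPM in the SP libraries, so Ab did not overlap with the others. Of 4 endothelial markers, 3 were matched to an identifier, and they summed to 3.53 to 5.04 CPM in Ab, 21.3 to 23.4 CPM in NR and 20.8 to 24.2 CPM in SP, mostly from CDH5. The 5 fibroblast markers, with COL1A1 the most abundant, summed to 16.7 to 44.4 CPM in Ab, 68.6 to 73.9 CPM in NR and 74.0 to 80.5 CPM in SP. DCN had 280 to 518 counts in the nanoparticle libraries and 7 to 21 in Ab, and PDGFRB had 150 to 320 and 8 to 11. COL1A2 was higher in Ab 1 and Ab 2 than in any nanoparticle library, while Ab 3 overlapped with these, with 37, 0 and 0 counts in NR 1 to 3, 49, 49 and 43 in SP 1 to 3, and 198, 278 and 33 in Ab 1 to 3. NR 1 and Ab 3 thus stood apart from their groups in this gene. Ab 3 was also low in COL1A1 (293 counts against 580 and 709 in Ab 1 and Ab 2) and COL3A1 (11 against 72 and 73). Over all genes Ab 1 stood apart, with a chi-square per gene of 7.43 and 6.95 against the other Ab libraries, which differed from each other by 2.17. The same measure was 3.30 and 3.71 for NR 1 against NR 2 and NR 3, with 1.84 between these, and 4.14 and 5.16 for SP 1 against SP 2 and SP 3, with 3.03 between these. The part of these markers in the results was not tested, and the values without each library are given where they changed a call.

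MCL1 and PMAIP1, the genes of a pro-survival protein and of its BH3-only partner NOXA, were lower with gold-borne antibody than with free antibody, with folds of 2.37 (MCL1) and 3.27 (PMAIP1) in NR and of 2.33 and 3.63 in SP. BIK, a BH3-only gene of low level, was about 2-fold higher. BCL2L1 and BCL2L11 were lower and BCL2, BAX and BID higher by less than 2-fold in both, BAD was higher in NR, and BAK1 did not pass the test in either. No member passed the test between rods and spheres. NR and SP were set against the same 3 Ab libraries, so their contrasts with Ab are not independent of each other.

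Calls required a change of 2-fold or more and an adjusted p of 0.05 or less in the quasi-likelihood test of edgeR, with p-values adjusted over all genes tested by the Benjamini-Hochberg method. All 10 members passed the filter on low counts in every comparison. In NR against Ab, 3 of the 10 members were called, 1 higher and 2 lower, where 22.7% of all 15009 genes tested were called, 12.4% higher and 10.3% lower. By the adjusted p alone, 5 members were higher and 4 lower, against 36.4% of all genes in each direction and 72.7% in all. In SP against Ab, 3 of 10 were called, again 1 higher and 2 lower, against 23.2% of 15068 genes (12.6% higher, 10.6% lower), and 4 were higher and 4 lower by the adjusted p alone, against 73.0% in all. The groups did not overlap for 5 members higher and 4 lower in NR against Ab (38.8% and 35.8% of all genes) and for 4 higher and 4 lower in SP against Ab (39.0% and 36.0%). A change was thus the common state of genes in these contrasts, and the members' counts were near those of the background. The median log2 fold change of the members was 0.10 in NR and 0.09 in SP against Ab, beside medians over all genes of -0.0055 and -0.0067. Bulk libraries cannot tell fewer cells of a kind from less RNA per cell.

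**Figure D1:**
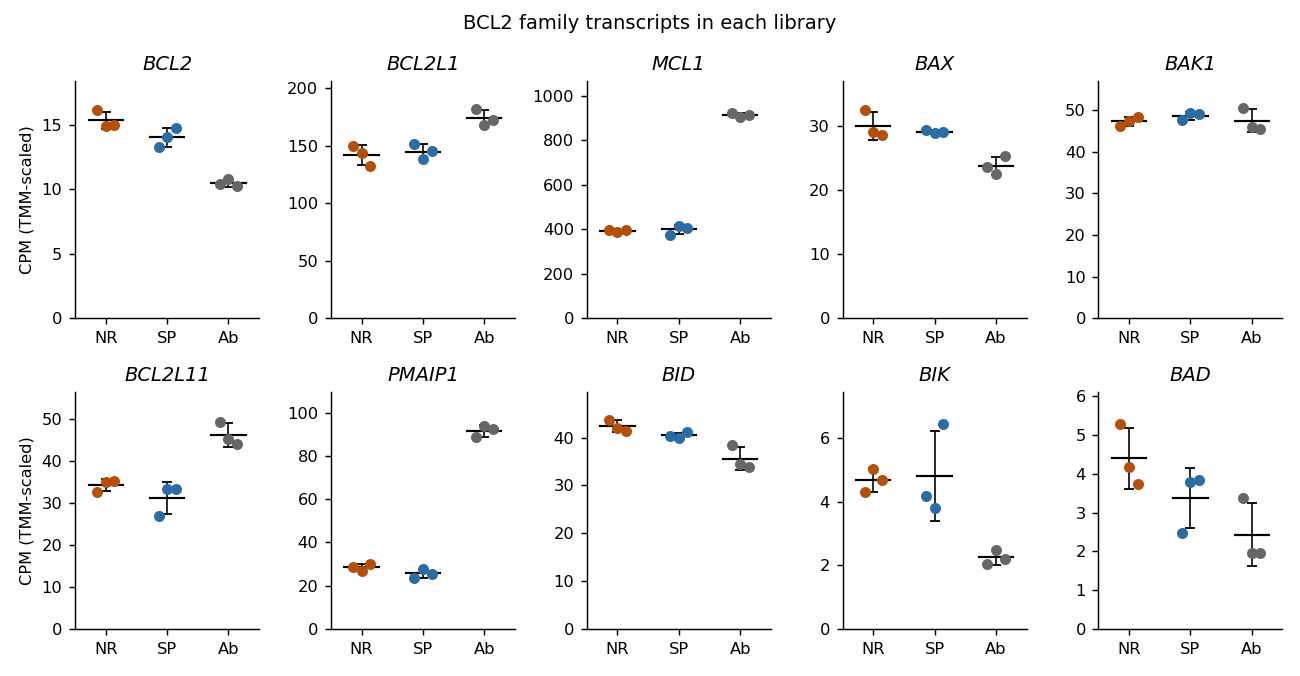
Levels of the 10 BCL2 family transcripts in CPM with TMM scaling (vertical axes, each from 0) in the 9 libraries, with points for libraries 1 to 3 from left to right in NR, SP and Ab, a line for the mean and bars for the SD. The MCL1 and PMAIP1 points of NR and SP lie far below those of Ab, BAK1 points overlap, and the BIK point of SP 3 (6.43 CPM) stands above the others.

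MCL1 (ENSG00000143384, chr1:150533371-150552214, minus strand) was the most abundant of the 3 pro-survival transcripts. Its level was 396, 389 and 395 CPM in NR 1 to 3, 375, 416 and 407 CPM in SP, and 925, 904 and 915 CPM in Ab. Every nanoparticle library lay far below every Ab library. The log2 fold change was -1.24 (SE 0.0398, edgeR adjusted p = 5.62e-21) in NR and -1.22 (SE 0.0447, edgeR adjusted p = 2.77e-19) in SP. The spread between libraries of a group was small beside this difference, with SDs of 3.66 CPM in NR, 21.7 in SP and 10.5 in Ab.

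BCL2L1 (ENSG00000171552, chr20:30252255-30311792, minus strand), the source of BCL-XL, had 150, 144 and 133 CPM in NR, 151, 139 and 145 CPM in SP, and 182, 168 and 173 CPM in Ab. All nanoparticle libraries were below all Ab libraries, but the gap was narrow. This gave a log2 fold change of -0.32 (SE 0.0496, edgeR adjusted p = 1.85e-06) in NR and -0.29 (SE 0.0504, edgeR adjusted p = 9.24e-06) in SP. Of its exon bases 41.3% are shared with the antisense gene ABALON, and since the counting is not stated to use strand, reads of the pair cannot be told apart.

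BCL2 (ENSG00000171791, chr18:60790579-60987361, minus strand), the founding pro-survival member, moved the other way. It had 16.2, 15 and 15 CPM in NR, 13.3, 14.1 and 14.8 CPM in SP, and 10.5, 10.8 and 10.2 CPM in Ab. The 3 groups did not overlap, with NR above SP and SP above Ab. Against Ab the log2 fold change was 0.53 (SE 0.0988, edgeR adjusted p = 2.84e-05) in NR and 0.39 (SE 0.100, edgeR adjusted p = 0.00102) in SP. The level of BCL2 was low, with 204 to 413 counts in a library against 5406 to 23960 for MCL1.

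The pore-forming genes changed little. BAX (ENSG00000087088, chr19:49458072-49465055, plus strand) had 32.5, 29.0 and 28.5 CPM in NR, 29.3, 28.8 and 29.1 CPM in SP, and 23.5, 22.4 and 25.2 CPM in Ab. Every nanoparticle library was above every Ab library, and the log2 fold change was 0.32 (SE 0.0768, edgeR adjusted p = 0.000528) in NR and 0.27 (SE 0.0747, edgeR adjusted p = 0.00225) in SP. BAK1 (ENSG00000030110, chr6:33540324-33548070, minus strand) had 46.1, 47.3 and 48.2 CPM in NR, 47.5, 49.3 and 49.0 CPM in SP, and 50.5, 46.0 and 45.5 CPM in Ab. The BAK1 levels of the 3 groups overlapped, and Ab 1 was the highest of the 9. The 95% interval of its log2 fold change was -0.159 to 0.0979 in NR (edgeR adjusted p = 0.673) and -0.116 to 0.141 in SP (edgeR adjusted p = 0.869), which leaves out changes of 2-fold.

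Among the BH3-only genes PMAIP1 (ENSG00000141682, chr18:57567228-57571537, plus strand) had the largest difference from Ab of the 10 members. NOXA, its product, is a sensitiser that neutralises MCL1. Its level was 28.8, 26.8 and 29.9 CPM in NR, 23.7, 27.8 and 25.6 CPM in SP, and 88.6, 94.1 and 92.3 CPM in Ab. The highest nanoparticle library was thus far below the lowest Ab library. Its log2 fold change was -1.71 (SE 0.0611, edgeR adjusted p = 6.75e-20) in NR and -1.86 (SE 0.0660, edgeR adjusted p = 1.31e-19) in SP.

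BCL2L11 (ENSG00000153094, chr2:111876955-111926021, plus strand), the source of the activator BIM, had 32.5, 35.0 and 35.2 CPM in NR, 26.9, 33.4 and 33.2 CPM in SP, and 49.2, 45.2 and 43.9 CPM in Ab. The nanoparticle libraries did not overlap with the Ab libraries, and SP 1 was the lowest of all. The log2 fold change was -0.46 (SE 0.0674, edgeR adjusted p = 6.80e-07) in NR and -0.59 (SE 0.0771, edgeR adjusted p = 1.60e-07) in SP, both short of 2-fold. Its exons share 10.8% of their bases with MIR4435-2HG.

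BIK (ENSG00000100290, chr22:43506756-43525718, plus strand), a BH3-only gene whose product sits mainly at the endoplasmic reticulum, was called higher in both contrasts. It had 110, 70 and 75 counts in NR, 91, 87 and 132 counts in SP, and 40, 66 and 46 in Ab, or 4.30, 5.04 and 4.69 CPM, 4.18, 3.80 and 6.43 CPM, and 2.05, 2.49 and 2.20 CPM. All nanoparticle libraries were above all Ab libraries, and SP 3 was well above SP 1 and SP 2. The log2 fold change was 1.01 (SE 0.184, edgeR adjusted p = 1.84e-05) in NR and 1.05 (SE 0.203, edgeR adjusted p = 4.41e-05) in SP. This stood at the 2-fold threshold. The adjusted p stayed at or under 0.000319 (NR) and 0.00164 (SP) when any library was left out, but the log2 fold change went under 1 in NR without NR 2 (0.951), NR 3 (0.997), Ab 1 (0.946) or Ab 3 (0.985), and in SP without SP 3 (0.801) or Ab 1 (0.990).

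BID (ENSG00000015475, chr22:18216904-18257536, minus strand), which caspase-8 cuts to its active form in the death receptor pathway, had 43.8, 42.1 and 41.4 CPM in NR, 40.4, 39.9 and 41.1 CPM in SP, and 38.4, 34.5 and 33.9 CPM in Ab. Against Ab its log2 fold change was 0.23 (SE 0.0669, edgeR adjusted p = 0.0031) in NR and 0.16 (SE 0.0677, edgeR adjusted p = 0.0357) in SP. The groups did not overlap, but the margin in SP was small, and BID passed in SP in 1 of the 6 fits that left out a library, with the highest adjusted p (0.168) without Ab 3. By DESeq2 the adjusted p of BID in SP was 0.0792.

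BAD (ENSG00000002330, chr11:64037302-64052176, minus strand), a sensitiser that is held inactive by phosphorylation and binding to 14-3-3 proteins, had the largest standard errors of the 10 members. It had 135, 58 and 60 counts in NR, 54, 87 and 79 counts in SP, and 66, 52 and 41 in Ab, or 5.28, 4.17 and 3.75 CPM, 2.48, 3.80 and 3.85 CPM, and 3.38, 1.96 and 1.96 CPM. NR lay above Ab, while SP 1 lay below Ab 1. The log2 fold change was 0.87 (SE 0.212, edgeR adjusted p = 0.000672) in NR. It was 0.46 in SP, with a 95% interval of -0.00626 to 0.934 (edgeR adjusted p = 0.0705). Without Ab 1 BAD was called in NR (log2 fold change 1.15). In SP it passed the edgeR adjusted p without Ab 1 (log2 fold change 0.751) or without SP 1 (0.635), and the value without Ab 2 was 0.315. Its exons share 23.7% of their bases with GPR137, and the reads of these bases may belong to either gene.

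**Figure D2:**
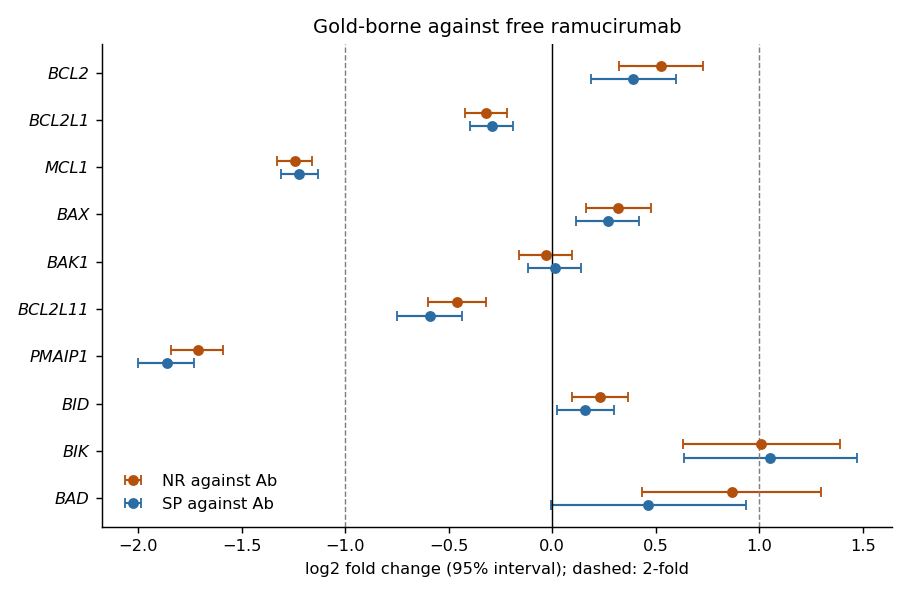
log2 fold changes (horizontal axis) of the 10 members (vertical axis) in NR against Ab and SP against Ab, with 95% intervals from the edgeR fit of each pair of groups and dashed lines at 2-fold. Only MCL1 and PMAIP1 have intervals wholly beyond 2-fold, the BIK intervals span it, and the BAK1 intervals span 0.

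Levels can be compared between genes only per length, so CPM was divided by the exon length of each gene in kb. This length joins the exons of all annotated transcripts of a gene, from 951 bases for BIK to 12612 for BCL2. Which transcripts the cells made was not determined, so the order, sums and shares below depend on these lengths. In Ab MCL1 led with 147 ± 1.70 CPM per kb (SD, n = 3), followed by PMAIP1 with 41.9 ± 1.27 and BCL2L1 with 41.5 ± 1.63, whose ranges overlapped. BAK1 (21.4 ± 1.25), BAX (9.17 ± 0.544), BID (8.05 ± 0.548) and BCL2L11 (6.84 ± 0.410) came next, with overlap only between BAX and BID. BIK (2.36 ± 0.235), BAD (1.42 ± 0.480) and BCL2 (0.832 ± 0.0240) were the lowest. In NR MCL1 was still first, at 63.2 ± 0.584 CPM per kb, followed by BCL2L1 (33.9 ± 2.1) and BAK1 (21.4 ± 0.476). PMAIP1 (13 ± 0.706) came after these, in a range that overlapped with BAX (11.6 ± 0.845). The order in SP was the same down to BID, with MCL1 at 64.2 ± 3.49, BCL2L1 at 34.5 ± 1.54, BAK1 at 22.0 ± 0.422 and PMAIP1 at 11.8 ± 0.925 CPM per kb. BIK and BCL2L11 overlapped in both nanoparticle groups, at 4.92 ± 0.386 and 5.08 ± 0.217 in NR and 5.05 ± 1.5 and 4.62 ± 0.550 in SP, whereas in Ab BCL2L11 lay above BIK.

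Summed by role on this scale, the 3 pro-survival transcripts reached 189 ± 3.51 CPM per kb in Ab, 98.4 ± 2.39 in NR and 99.8 ± 2.08 in SP (SD, n = 3). The 5 BH3-only transcripts summed to 60.6 ± 0.702 in Ab, 35.2 ± 0.436 in NR and 32.6 ± 2.62 in SP. The pair of pore-forming transcripts summed to 30.6 ± 1.22, 32.9 ± 0.416 and 33.2 ± 0.346. As shares of the sum over the 10 genes, the pro-survival transcripts took 67.2% to 67.7% in Ab, 58.5% to 59.3% in NR and 59.7% to 60.9% in SP, and the pore-forming ones 10.6% to 11.2%, 19.7% to 20% and 19.7% to 20.5%. The BH3-only share was 21.3% to 22.1% in Ab, 20.9% to 21.5% in NR and 18.6% to 20.6% in SP. MCL1 alone made up 52.1% to 52.6% in Ab, 37.5% to 38.6% in NR and 37.6% to 40.0% in SP. These shares follow from the values above and add no further test.

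**Figure D3:**
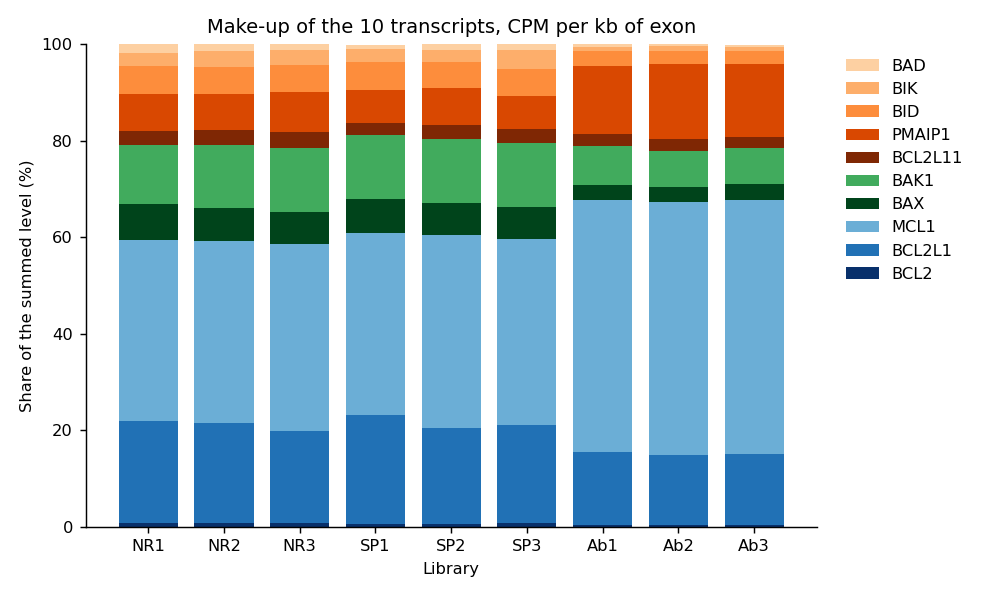
Share of each of the 10 transcripts in their summed level (vertical axis, %, from CPM per kb of exon) in each of the 9 libraries (horizontal axis), with blue for pro-survival, green for pore-forming and orange to brown for BH3-only genes. MCL1 takes 52.1% to 52.6% of the bar in the Ab libraries and 37.5% to 40.0% in the nanoparticle libraries.

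Ratios of counts within a library do not depend on its scaling. The PMAIP1 to MCL1 ratio was 0.0959 to 0.104 in Ab, 0.0690 to 0.0757 in NR and 0.0629 to 0.0667 in SP, so PMAIP1 was lower relative to MCL1 in all 6 nanoparticle libraries. The BCL2L11 to MCL1 ratio was higher, at 0.0823 to 0.0899 in NR and 0.0716 to 0.0815 in SP against 0.0480 to 0.0532 in Ab. The BAX to BCL2L1 ratio was 0.129 to 0.146 in Ab, 0.202 to 0.216 in NR libraries and 0.193 to 0.208 in SP libraries. The BAX to BCL2 ratio overlapped between SP (1.97 to 2.20) and Ab (2.07 to 2.47) and was 1.90 to 2.01 in NR. A ratio shows that the genes changed unequally, not which of them changed.

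Between NR and SP, 0 of the 10 members were called and 0 passed the adjusted p of edgeR's quasi-likelihood test. DESeq2 gave an adjusted p for 2 of the members, MCL1 and BCL2L1, which did not pass, and its own filter left the 8 others without one. Of 14903 genes tested 0.0201% were called and 0.443% passed the adjusted p, 0.262% with NR higher and 0.181% with NR lower. At an unadjusted p under 0.05, 2 of the 10 members (PMAIP1 and BAD) stood beside 12.9% of all genes. The groups did not overlap for 2 members, BCL2 and BID, both higher in NR. Of all genes 17.9% did not overlap, 8.21% with NR higher and 9.72% with NR lower. PMAIP1 had a log2 fold change of 0.15 (95% interval 0.000646 to 0.306, edgeR adjusted p = 0.385) and BAD of 0.41 (0.0129 to 0.801, edgeR adjusted p = 0.369).

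The intervals bound how far rods and spheres could differ. For MCL1 the log2 difference was -0.02, with a 95% interval of -0.0989 to 0.0581, for BCL2L1 -0.02 (-0.120 to 0.0727) and for BCL2 0.14 (-0.0493 to 0.325). For BAX it was 0.06 (-0.0861 to 0.198) and for BAK1 -0.04 (-0.154 to 0.0720). For BCL2L11 it was 0.13 (-0.0205 to 0.289), for BID 0.07 (-0.0449 to 0.191) and for BIK -0.04 (-0.421 to 0.335). None of the 10 intervals reached a 2-fold difference, and those of BIK and BAD, the members with the fewest counts, were the widest. A p that misses the threshold does not show that rods and spheres act alike on these genes.

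**Figure D4:**
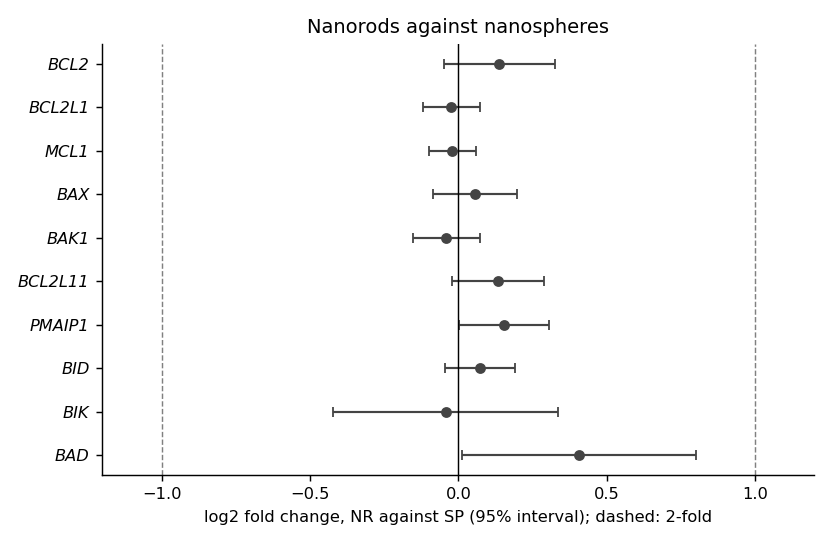
log2 fold changes (horizontal axis) of the 10 members (vertical axis) in NR against SP, with 95% intervals from edgeR and dashed lines at 2-fold. All 10 intervals lie within 2-fold, and only those of PMAIP1 and BAD leave out 0, by a small margin.

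Of 14 other BCL2 family genes, 11 were tested, and BMF, HRK and BCL2L15 were called in at least 1 contrast with Ab. In NR against Ab 2 were called higher and 0 lower, with 3 higher and 2 lower by the adjusted p alone, and in SP against Ab 2 were called higher and 1 lower, with 3 higher and 4 lower. Over all genes 22.7% (NR) and 23.2% (SP) were called and 72.7% and 73.0% passed the adjusted p. The median log2 fold change was 0.04 and 0.05. BMF, a BH3-only gene whose product is tied to the cytoskeleton through dynein light chain, had 151, 87 and 106 counts in NR, 121, 159 and 171 counts in SP, and 28, 44 and 24 in Ab. Its log2 fold change was 2.1 (SE 0.192) in NR and 2.25 (SE 0.198) in SP, the largest rise among the BH3-only genes tested. BCL2L15 had 5 to 8 counts in Ab, 44 to 51 counts in NR and 46 to 69 counts in SP, a log2 fold change of 3.06 (SE 0.344) and 3.12 (SE 0.338). HRK, the BH3-only gene of the protein Harakiri, went the other way, with 449 to 521 counts in Ab, 161 to 264 counts in NR and 207 to 255 counts in SP. HRK fell by 1.03 on the log2 scale in SP, where it was called, and its log2 fold change of -0.99 in NR passed the adjusted p but not 2-fold. This call of HRK turned on single libraries: it was lost in SP without SP 2 (-0.998), SP 3 (-0.991) or Ab 1 (-0.983) and gained in NR without NR 2 (-1.1) or Ab 2 (-1.05). By glmTreat against 2-fold HRK did not pass in SP (adjusted p = 0.746). The 3 genes left out by the filter were BCL2A1, BCL2L10 and BCL2L14. BCL2L10 had 12, 4 and 9 counts in Ab 1 to 3 and 0 in all nanoparticle libraries, and the counts of the others were 0 or 1.

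Among transcription factors known to control BCL2 family genes, ATF4, DDIT3, ATF3 and JUN were lower by 2-fold or more in both contrasts with Ab. Of 15 tested, 1 was called higher and 4 lower in both contrasts with Ab, and 4 were higher and 10 (NR) or 11 (SP) lower by the adjusted p, with median log2 fold changes of -0.42 and -0.52. Over all genes the called shares in the NR contrast were 12.4% (higher) and 10.3% (lower), those in the SP contrast 12.6% and 10.6%, and 36.4% (NR) and 36.6% (SP) were lower by the adjusted p. The list was not tested against other genes. TP73, STAT3 and CREB1 were among the 4 factors higher in NR against Ab by the edgeR adjusted p. Their log2 fold changes were 0.73 (SE 0.137), 0.51 (SE 0.0493) and 0.60 (SE 0.0737), short of 2-fold. Targets of factors are named as background, and the part of any factor in the members' levels was not tested. ATF4, the stress-response factor known to switch on PMAIP1, had 15860, 20093 and 16507 counts in Ab, 8566, 4265 and 4746 in NR and 5718, 6405 and 6117 in SP. In CPM this was 786 ± 27.3 in Ab, 313 ± 19.9 in NR and 280 ± 17.6 in SP (SD, n = 3), a log2 fold change of -1.36 (SE 0.0456) and -1.52 (SE 0.0478). DDIT3, the gene of CHOP, a factor that acts downstream of ATF4 and is known to raise BCL2L11, had 862, 1141 and 825 counts in Ab, 79, 42 and 35 counts in NR and 92, 76 and 70 counts in SP. The DDIT3 log2 fold change of -3.94 (SE 0.110) in NR and -3.56 (SE 0.103) in SP was the largest of the 5 lists, but other genes cover 39.6% of its exon bases. ATF3 went from 95.3 ± 4.62 CPM in Ab to 32.5 ± 1.89 in NR and 37.9 ± 2.33 in SP, and JUN, whose product can raise BCL2L11, from 366 ± 14.1 to 107 ± 0.808 and 114 ± 2.84. Between NR and SP 0 of the 15 factors passed the adjusted p of edgeR, with 6 at an unadjusted p under 0.05, beside 12.9% of all genes.

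Of kinases, ubiquitin enzymes and binding partners that act on BCL2 family proteins, 18 were tested. Of these 2 were called in NR, both lower, and 1 in SP, also lower, with 5 higher and 10 lower, and 5 higher and 8 lower, by the adjusted p, and medians of -0.21 and -0.05. Over all genes the shares called lower were 10.3% and 10.6%, and 72.7% and 73.0% passed the adjusted p. The called genes were PIM1 and PIM3, kinases that phosphorylate BAD. PIM1 had 206 ± 13.4 CPM in Ab, 101 ± 3.14 in NR and 110 ± 4.29 in SP (SD, n = 3), a log2 fold change of -1.05 (SE 0.0506) in NR and, short of 2-fold, -0.94 (SE 0.0532) in SP. PIM3 had 158 ± 12.1 CPM in Ab, 76.8 ± 1.25 in NR and 72.6 ± 2.12 in SP, a log2 fold change of -1.07 (SE 0.0539) and -1.15 (SE 0.0569). In a test against 2-fold itself (glmTreat of edgeR), PIM1 and PIM3 did not pass in NR (adjusted p = 0.308 and 0.219), while PIM3 passed in SP (adjusted p = 0.0145).

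Of the genes that act after BAX and BAK1 open the membrane, 17 were tested. Of these 10 were higher and 4 lower by the adjusted p in both contrasts, with medians of 0.55 in NR and 0.43 in SP. The shares of all genes were 36.4% in each direction in NR, and in SP 36.4% (higher) and 36.6% (lower), and the list was not tested against them. In NR 2 were called higher, ENDOG among them, and 1 lower, BIRC3 (all genes 12.4% and 10.3%). In SP 0 were called higher and BIRC3 lower (all genes 12.6% and 10.6%). ENDOG, the gene of a mitochondrial nuclease, had 242, 189 and 205 counts in NR, 150, 222 and 197 counts in SP, and 144, 137 and 93 counts in Ab, with a log2 fold change of 1.04 (SE 0.182) in NR and 0.61 (SE 0.173) in SP, and other genes cover 40.1% of its exon bases. BIRC3, the gene of the inhibitor of apoptosis cIAP2, went from 126 ± 11.4 CPM in Ab to 61.7 ± 5.46 in NR and 60.3 ± 2.47 in SP. ENDOG was no longer called in NR without NR 2 (0.936), NR 3 (0.975), Ab 2 (0.975) or Ab 3 (0.896). By glmTreat against 2-fold ENDOG did not pass in NR (adjusted p = 0.875), nor BIRC3 in NR (0.423) or SP (0.119).

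In the death receptor arm that leads to BID, 10 of 12 genes were tested, since the ligand genes FASLG and TNFSF10 had 0 to 5 counts in every library. In each contrast with Ab 1 was called higher and 1 lower, with 3 higher and 5 (NR) or 6 (SP) lower by the adjusted p, and medians of -0.16 and -0.17. These counts were near the shares of all genes, 22.7% (NR) and 23.2% (SP) called and 72.7% and 73.0% past the adjusted p. TNFRSF10B, the gene of the TRAIL receptor DR5 and a known target of CHOP, had 285 ± 6.29 CPM in Ab, 124 ± 6.63 in NR and 117 ± 6.69 in SP (SD, n = 3), a log2 fold change of -1.24 (SE 0.0482) and -1.31 (SE 0.0491). CASP10, an initiator caspase gene, had 101, 105 and 92 counts in Ab, 276, 166 and 159 in NR and 206, 236 and 213 in SP, a log2 fold change of 1.25 (SE 0.138) and 1.14 (SE 0.134), and it did not pass glmTreat against 2-fold (adjusted p = 0.0759 and 0.297). Between NR and SP, 0 genes of this arm, of those downstream, of the kinases and partners and of the other family members passed the adjusted p of edgeR, with 0, 4, 4 and 2 at an unadjusted p under 0.05, beside 12.9% of all genes.

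Promoters of the members were searched for forkhead, combined C/EBP and ATF, and E2F elements only. Elements of the other listed transcription factors were not searched. RefSeq windows on GRCh38.p14, 250 bases before to 50 bases after a start site, were found for 8 of the 10 members (all but MCL1 and BIK), in 14 windows. The forkhead element GTAAACA, searched on both strands, was present for BCL2L11 alone, and in 3.42% of all 35116 windows. BCL2L11 is a known target of the forkhead factor FOXO3, and the element is shown because BCL2L11 was lower in both contrasts. FOXO3 had a log2 fold change of -0.82 in NR and -0.74 in SP against Ab. For FOXO1 it was -0.50 and -0.41. Both passed the adjusted p of edgeR, short of 2-fold, and their part in the level of BCL2L11 was not tested. The stretch lies at chr2:111120680-111120709 on the plus strand of GRCh38.p14, and the capitals, which mark the element, begin 223 bases before the start site.
BCL2L11 promoter: gagttactccgGTAAACAcgccagggacgg
The combined C/EBP and ATF element TGATGCAA was in 0 of the members' windows and in 0.866% of all windows, and the E2F elements TTTGGCGC and TTTCGCGC in 0 and in 0.652% and 0.515% of all. A match is only a string of letters, and its absence says only that these letters are not in the window.

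The genes with a pattern most like that of MCL1 over the 9 libraries, by Pearson's r of log2(CPM + 1), were CCDC174 (r = 0.9993), TPBG (r = 0.9992) and SPHK1 (r = 0.9992). For PMAIP1 they were BRD1 (r = 0.9984), RBM39 (r = 0.9982) and SHANK2 (r = 0.9976). These values describe libraries that share 1 split between Ab and nanoparticle groups. Of 10762 genes with a mean of at least 100 counts, 2149 had an r over 0.95 with MCL1 and 2056 with PMAIP1.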

How the data were processed

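The authors removed low-quality reads, aligned the rest with HISAT2 2.1.0 and counted reads per Ensembl gene. The paper gives hg19, although the submitters' processing notes name mm9, and the identifiers are human. The counter is named differently in its sources, and strand and annotation release are not given in the sources used here. The deposited values are raw counts, not scaled between libraries. The authors' comparisons used DESeq2 1.16.1.

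Names, positions and exon lengths came from GENCODE release 44 on GRCh37 (59858 of 60880 identifiers matched). The 1022 others held 0.102% to 0.115% of counts and remained in the fits under their identifiers. Each pair of groups was fitted on its own 6 libraries with edgeR 4.0.16 (R 4.3.3): TMM, filterByExpr (minimum count 10, total 15), the robust quasi-likelihood test and Benjamini-Hochberg adjustment. Standard errors and 95% intervals came from the F statistic. The fits were also tested on simulated data, but the outcome is not given here and no result rests on it. Libraries of a group differed by more than sampling noise. The paper calls them biological replications and states independent repeats for its in vitro experiments. The labels name no separate cultures, so the p-values measure the spread between these libraries, which may be partly technical.

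The members and lists were chosen with earlier results of these data known. Named genes are the members, the called genes of each list (up to 6) and the 3 genes most like MCL1 and PMAIP1. Some single genes counted in the lists are not reported here. BCL2L10, BCL2A1, BCL2L14, FASLG, TNFSF10, FOXO1, FOXO3, TP73, STAT3 and CREB1 were named after their values were seen. Alternatives were DESeq2 1.42.0, RLE or no scaling, 2 filters, glmTreat, a 1.5-fold minimum, all 9 libraries in a single fit, a replicate block and each library left out. Python 3.11.15, numpy 2.4.6, pandas 2.3.3 and matplotlib 3.10.9 made tables and figures.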

Additional observations from a re-analysis of the deposited data

How the results depend on the processing

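The counts of members called or past the adjusted p kept within 1.5 times their values in all 84 alternative values computed. This allowance is wide for small counts: 2 to 4 members were called in each contrast with Ab, where the main value was 3. In NR against SP the counts stayed at 0. MCL1 and PMAIP1 were called in both contrasts with Ab under all 15 alternatives. Of 150 values of single members in each comparison, 140 kept their direction and their call at 2-fold in NR against Ab, 142 in SP against Ab and 144 in NR against SP, 8 of these without an adjusted p by DESeq2. By the adjusted p alone, with glmTreat left aside, only SP against Ab had crossings: BID was lost in 7 of 14 alternatives and BAD was gained in 2. BIK lost its call in NR with no filter beyond 1 count (0.999), with at least 10 counts in every library (0.985) and in the glmTreat test against 2-fold (adjusted p = 1), and in SP with glmTreat (adjusted p = 0.822). The sign of unchanged members varied. BAK1 in SP against Ab was -0.0037 with at least 10 counts in every library. With each library left out in turn, BAK1 was -0.0623 to 0.0122 in NR and -0.0202 to 0.0558 in SP against Ab, and in NR against SP BAX was -0.00994 to 0.0895, BIK -0.19 to 0.22, BCL2L1 -0.0637 to 0.0202 and MCL1 -0.0597 to 0.00855. The cause was not tested. With the replicate block, 3414 genes were called in NR against Ab (3409 without it), 3493 in SP against Ab (3502) and 4 in NR against SP (3), and the members' counts did not change. Same-numbered libraries were not paired by the data, with correlations of their deviations of -0.11 to 0.041. Depth limits BIK and BAD most, with 40 to 135 counts in a library. Shared exon bases limit BCL2L1, BAD, BCL2L11, MCL1 and BAK1, and the shared Ab libraries limit both contrasts with Ab. No untreated group was analysed here.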
